A study of Mus musculus with 4 samples.

Results

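The Dlk1-Dio3 region is an imprinted domain of mouse chromosome 12 that holds one of the largest groups of microRNAs (miRNAs) in the genome, and its members were followed here on 4 single-colour miRNA arrays of mast cells. The cluster was defined by 46 miRNA names, and a probe counted as a member if it carried one of them, with or without the 5p or 3p arm, and was neither a passenger-strand (star) nor a mismatch probe. Where several species' probes carried one name, the mouse-named probe was taken first, then the human-named, then the rat-named. This gave 48 probes (26 mouse-named, 21 human-named and 1 rat-named) for 39 of the 46 miRNAs, out of 354 mouse miRNA names chosen in the same way over the whole array. No probe met the rule for miR-665, miR-666, miR-667, miR-668, miR-673, miR-758 and miR-770, which were not analysed here.

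The arrays compared primary mouse mast cells grown from bone marrow (BMMC) with the line P815, a mouse mast cell line labelled as a D814V KIT mutant. KIT is the receptor of stem cell factor (SCF), and mutations at this position are known to make it respond poorly to imatinib, a KIT inhibitor. BMMC were cultured in SCF and interleukin 3 and were either starved of SCF or given SCF at 100 ng per cc, and P815 grew in medium without cytokines and was left untreated or given imatinib at 10 nM. Each treatment lasted 24 h. The groups are called starved BMMC, SCF-treated BMMC, untreated P815 and imatinib-treated P815, and 4 values given for a probe follow this order. Each of the 4 groups had 1 array, P815 is a single line, and the number of mice behind the BMMC RNA is not stated, so no difference below has a replicate error and no test was made. The labels name neither a mouse strain nor a KIT genotype for BMMC, and no probe reports KIT activity.

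The miRNAs of the domain are made from the maternal chromosome, from long non-coding transcripts that include Meg3, Rian and Mirg, while the protein-coding genes Dlk1, Rtl1 and Dio3 are active on the paternal one. One set, with miR-127, miR-136, miR-431, miR-433 and miR-434, lies antisense to Rtl1 and is known to repress it, and a longer set runs from miR-379 to miR-410 and is known best from brain, placenta and embryonic tissue. In neurons this longer set is switched on by the MEF2 transcription factors, and miR-134 in it is known for limiting the growth of dendritic spines through Limk1.

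Mature sequences were taken from RefSeq (GRCm38.p6) and were found for 45 of the 48 probes. The array files hold no probe sequences. For 14 of these probes the name states the arm, and for 31 the arm shown is the one that the plain name stood for in older miRNA naming. The 45 probes correspond to 44 distinct mature RNAs, which had 44 distinct seeds (bases 2 to 8, in capitals), so no pair of different members shared a target-pairing seed. The first 6 RNAs below belong to the members listed on every array, and the others to miR-485-3p, miR-381 and miR-495, which differed with a treatment, and to miR-300 and miR-543, which share bases with miR-381 and miR-495.
miR-494-3p: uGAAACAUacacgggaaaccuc
miR-431-5p: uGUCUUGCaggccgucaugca
miR-370-3p: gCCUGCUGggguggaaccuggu
miR-134-5p: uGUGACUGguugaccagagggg
miR-493-3p: uGAAGGUCcuacugugugccagg
miR-539-5p: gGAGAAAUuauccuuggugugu
miR-485-3p: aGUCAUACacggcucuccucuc
miR-381-3p: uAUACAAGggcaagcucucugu
miR-300-3p: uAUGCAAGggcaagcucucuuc
miR-495-3p: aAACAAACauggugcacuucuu
miR-543-3p: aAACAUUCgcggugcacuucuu
All lie on the plus strand of chromosome 12, from chr12:109580283-109580305 for miR-493-3p to chr12:109734946-109734967 for miR-485-3p. miR-381-3p and miR-300-3p share a run of 16 bases, caagggcaagcucucu, from base 5 of each. miR-495-3p and miR-543-3p, which are neighbours among the measured members, have different seeds and share their last 12 bases, ggugcacuucuu. Signals of such pairs may not be fully separate on an array.

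A probe was called listed on an array where the authors' processed table gave it a value. This was the case where its intensity, the brightness of the spot on a linear scale, reached 1.5 times the median of the 604 mismatch (2-base mutant) probes of that array. The limit was 444, 416, 304.5 and 270.0 on the 4 arrays. Between 41.5% and 67.5% of all mouse miRNA probes were listed on an array, and between 29.9% and 56.1% of the 107 probes named for virus or worm miRNAs. Of 7 miRNAs on a list for blood cells, 7, 6, 4 and 4 were listed, and miR-223 and miR-142-3p were not listed in P815. Over that list the summed intensity ranged from 18875 to 25091 on the BMMC arrays and from 5871 to 8458 on the P815 arrays. The brightest of the 7 on each array was miR-21, with 16139, 11497, 2929 and 3694.5, followed by miR-191, with 4729, 4321, 1318 and 3208.5. Such sums are unscaled, and the median intensity of all mouse miRNA probes was 551, 403, 273 and 247. Of lists for other cell types, the most that any array listed was 2 of 5 neural, 2 of 4 muscle, 1 of 1 liver, 1 of 2 erythroid, 0 of 1 endothelial, 0 of 1 islet and 3 of 4 stromal miRNA probes. The summed intensity ranged from 4163 to 6264.5 in BMMC and from 3000.5 to 3460.5 in P815 for the stromal list, and from 1718 to 2408 and from 1524 to 1824.5 for the neural list. miR-451 (erythroid), miR-126 (endothelial), miR-375 (islet) and miR-9 (neural) were listed on no array, and miR-206 (muscle), miR-214 (stromal), miR-122a (liver) and miR-128b (neural) on all 4. The part of such cells in the cluster's values was not tested. In bulk RNA, fewer cells of a kind and less RNA per cell cannot be told apart.

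Most of the cluster lay at background in both kinds of mast cell. Of the 48 probes, 23 (47.9%) were listed in starved BMMC, 9 (18.8%) in SCF-treated BMMC, 9 (18.8%) in untreated P815 and 12 (25.0%) in imatinib-treated P815. On every array this share was below that of all mouse miRNA probes and also below that of the virus and worm probes (56.1%, 32.7%, 29.9% and 36.4%). In all, 23 probes were listed on no array, with intensities between 130 and 433.75, and 6 (12.5%) were listed on all 4. On all 4 arrays 35.6% of mouse miRNA probes and 24.3% of virus and worm probes were listed, and on at least 1 array 69.8% and 56.1%, against 52.1% of the cluster. The probes never listed included miR-127, a repressor of Rtl1, which read 424, 298, 241 and 239. A human-named miR-127 probe passed the limit in starved BMMC, with 459.5, and on no other array. They also included miR-410 at the far end of the cluster, with 363, 283, 236 and 180.5, and both miR-369 arms, miRNAs that have been used to reprogram cells. From miR-493 to miR-370, called the Meg3 and Rtl1 side, 7 of 13 probes were listed on at least 1 array, and from miR-379 to miR-410 the number was 18 of 35. miR-341 and miR-370, counted on the Meg3 and Rtl1 side, lie past Rtl1 within Rian.

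The listing limit was just passed by many members on one array. Of the 12 probes listed on a single array, 10 were listed in starved BMMC, at 1.01 to 1.73 times the limit, and 2, miR-495 and miR-543, in SCF-treated BMMC. The highest of the 10 was miR-487b, with 767.5, 406, 215.5 and 234.5. The chosen probes of the miR-376 family that were listed at all, miR-376a and miR-376b, belonged to these 10. A rat-named miR-376b probe read 888, 450, 278 and 267 and was listed on both BMMC arrays. The human-named miR-376b probe and the human-named and rat-named miR-376a probes were listed in starved BMMC only. RNAs of this family are known to be edited from adenosine to inosine in brain.

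**Figure D1:**
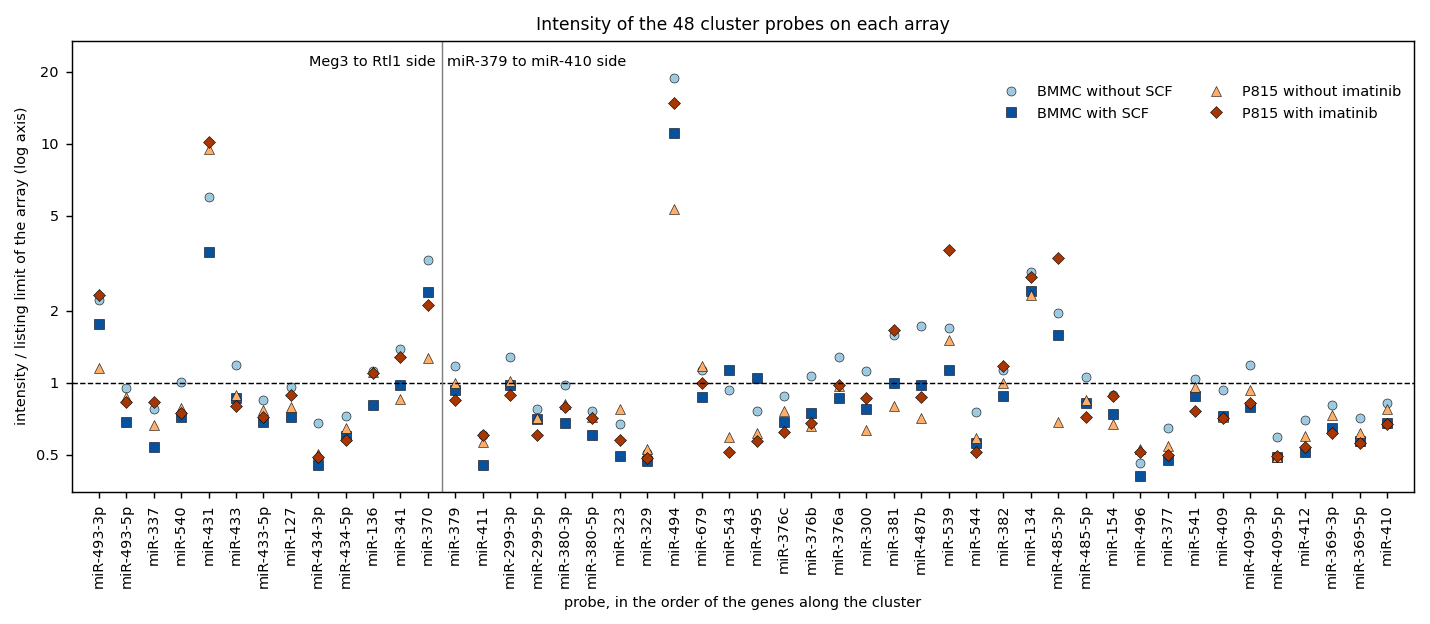
Intensity of each of the 48 cluster probes divided by the listing limit of its array (log axis), in the order of the genes along the domain, with 1 marker per array and a dashed line at the limit. Only miR-493-3p, miR-431, miR-370, miR-494, miR-539 and miR-134 lie above the line on all 4 arrays, and they are scattered along the domain.

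The 6 members listed on every array were miR-494, miR-431, miR-134, miR-370, miR-493-3p and miR-539. Brightness differs between probes for reasons other than RNA amount, so these values are compared between arrays and with each probe's own mismatch probe, not between miRNAs. miR-494 read 8331 in starved BMMC, 4618.5 in SCF-treated BMMC, 1617.5 in untreated P815 and 3998 in imatinib-treated P815. These intensities were 18.8, 11.1, 5.31 and 14.8 times the listing limit. The lowest of the 4 values was that of untreated P815, and both BMMC values were above both P815 values before scaling. miR-431, from the set antisense to Rtl1, read 2661, 1468, 2900.5 and 2754. Its lowest array was SCF-treated BMMC and its highest untreated P815, where miR-494 was lowest. miR-370 read 1448, 997, 385.5 and 573, lower on both P815 arrays before scaling. miR-493-3p read 984.5, 734, 352 and 628. It was therefore only 1.16 times the limit in untreated P815, and at least 1.76 times the limit on the other arrays.

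miR-134 was the one member of this group whose matched probe was never brighter than its mismatch probe. It read 1288, 1004, 707 and 750, and its mismatch probe read 1524, 1144, 850.5 and 1151, so that the ratio of the pair lay between 0.65 and 0.88. A human-named miR-134 pair gave ratios of 1.01, 0.78, 1.30 and 1.11, so neither pair set the matched probe clearly above its mismatch probe. The remaining probes among the 10 with the highest mean intensity were miR-485-3p, miR-381, miR-341 and miR-487b. miR-341 read 615, 405, 260.0 and 344, and passed the limit only in starved BMMC and imatinib-treated P815.

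Mismatch probes gave a second view of what was above background. Of the 48 chosen probes, 35 had a mismatch probe of their own. At least 2-fold over it lay 7 of the 35 in starved BMMC (20%), 3 in SCF-treated BMMC (8.57%), 1 in untreated P815 (2.86%) and 4 in imatinib-treated P815 (11.4%). Over the 259 mouse miRNA probes with a mismatch probe these shares were 44.4%, 35.5%, 19.7% and 25.9%. None of the 35 was 2-fold over its mismatch probe on all 4 arrays, and 2, miR-134 and miR-409-5p, were never brighter than it. miR-370 came to 4.39, 3.23, 1.71 and 3.24 times its mismatch probe and miR-493-3p to 3.54, 3.04, 1.81 and 3.39 times. In both, untreated P815 was the array with the smallest ratio.

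miR-494 has a mismatch probe only under its human name. The human-named matched probe read 10824.5, 6186, 1909 and 4133, and its mismatch probe 224.5, 189.0, 161.0 and 161.0. The matched probe was thus 48.2, 32.7, 11.9 and 25.7 times as bright, which was the largest ratio among the cluster's probes on each array. For miR-485-3p the human-named pair behaved otherwise. Its matched probe read 1562, 1138, 351 and 1279 and its mismatch probe 826.5, 713, 202.0 and 732.5, and the ratio stayed between 1.60 and 1.89. The mismatch probe of the human-named miR-410 probe was brighter than the matched one on every array, with ratios between 0.42 and 0.99.

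**Figure D2:**
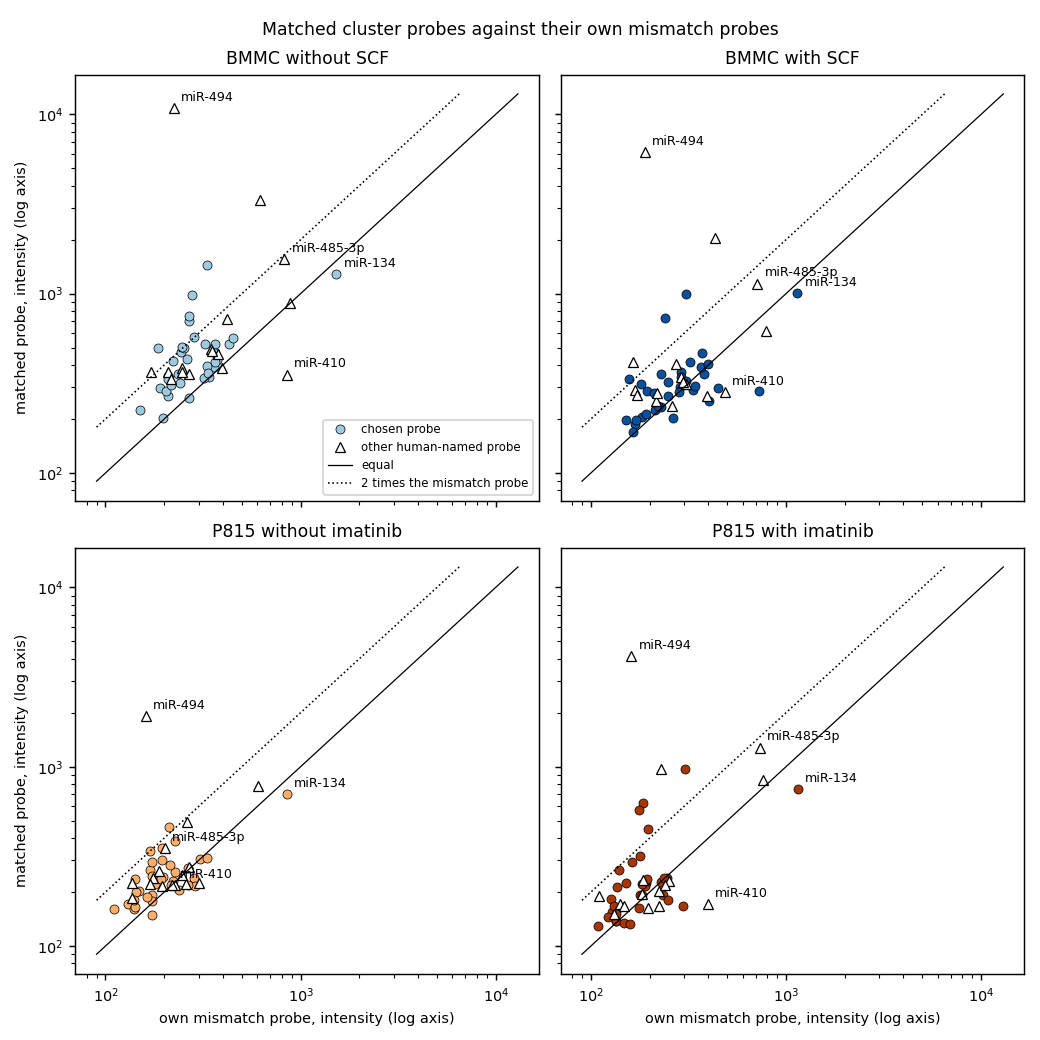
Matched cluster probes (vertical, log axis) against their own mismatch probes (horizontal, log axis), 1 panel per array; filled circles are the 35 chosen probes that have a mismatch probe and open triangles the 16 further human-named probes, with lines at equality and at 2 times the mismatch probe. Human-named miR-494 stands far above both lines on each array, and miR-134 and human-named miR-410 lie below equality.

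Differences between arrays were computed from intensities corrected for background and quantile-normalized over the 4 arrays, on the log2 scale. Probes listed on neither array of a pair were left out of that comparison, and a difference of at least 2-fold was counted. Where a probe was listed on 1 array only, its fold is written as "at least", taken against the lowest listed value on the other array or its own value there, whichever was higher.

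Scaling carries weight here: without it, the median log2 difference over the mouse miRNAs compared was -0.61 with SCF, 0.34 with imatinib, and -1.29 and -1.31 in the 2 comparisons of P815 with BMMC. The differences below are thus relative to the other miRNAs of an array.

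Relative to other miRNAs, most members of the cluster differed little between BMMC with and without SCF. Of 25 probes compared, 1 was at least 2-fold higher with SCF (4.0%, against 1.66% of the 241 mouse miRNAs compared) and 0 were at least 2-fold lower (against 0.0%). The median log2 difference was -0.08 over the cluster and -0.03 over all mouse miRNAs, and 23 of the 25 differed by less than 0.5. The cluster median rests largely on single-array listings: 16 of the 25 probes were listed only without SCF and 7 on both arrays. Of the 241 mouse miRNAs compared, 75 were listed only without SCF and 164 on both arrays. The Meg3 and Rtl1 side spanned -0.29 to 0.06 over 7 probes.

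The exceptions were the neighbours miR-495 and miR-543. miR-495 read 338.5 without SCF and 432.75 with SCF, and miR-543 read 412.5 and 467.5. They were the only 2 of the 48 probes whose unscaled intensity was higher with SCF, as it was for 3.95% of all mouse miRNAs. On the normalized scale the log2 difference was 1.05 for miR-495 and 0.83 for miR-543, just inside and just outside the 2-fold line. Neither was listed without SCF, so that only at least 1.49-fold and at least 1.64-fold can be stated, and the 2-fold call of miR-495 ends at that bound. A human-named miR-495 probe read 335 and 418, a log2 difference of 1.01, while its mismatch probe read 215.5 and 164.5. With SCF miR-495 and miR-543 were still only 1.04 and 1.12 times the limit. The pair shares its last 12 bases, as shown above, and how far both probes read one RNA was not tested.

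At the other end, miR-487b had the lowest SCF difference, -0.42 (at least 1.29-fold lower, not listed with SCF), and its human-named probe gave -0.33. miR-431 lay at -0.29 and miR-494 at -0.26, with -0.31 on the human-named miR-494 probe. Probes of one name but different species gave SCF differences apart by a median of 0.10 in the cluster, over 11 pairs, and at most 0.36.

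Between P815 with and without imatinib the differences were spread more widely, in both directions, as they were over all mouse miRNAs. Of 13 cluster probes compared, 2 were at least 2-fold higher with imatinib (15.4%, against 8.0% of the 175 mouse miRNAs compared) and 0 were at least 2-fold lower (against 6.86%). Of the 8 listed on both arrays 0 were 2-fold apart, where 5 of 132 mouse miRNAs were higher and 10 lower. The median was 0.06 over the 13 cluster probes and -0.22 over all mouse miRNAs. After median centring, 5 of the 13 were higher and 0 lower, where 35 of the 175 mouse miRNAs were higher and 2 lower. Only 4 of the 13 differed by less than 0.5, and 7 lay between 0.5 and 1. The SD of the log2 differences with imatinib was 0.94 over the cluster and 0.79 over all mouse miRNAs. With SCF the SDs were 0.32 and 0.31. In unscaled intensity 13 of the 48 probes were higher with imatinib (41.0% of all mouse miRNAs were), and these included miR-494, miR-370, miR-493-3p, miR-539, miR-485-3p and miR-381.

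miR-485-3p had the largest imatinib difference of the cluster. It read 868 in starved BMMC, 658 in SCF-treated BMMC, 207.5 in untreated P815 and 895.0 in imatinib-treated P815. Untreated P815 was thus the one array on which it was not listed, far below the others. miR-485 is known from neurons, where it acts at synapses. With imatinib it was at least 2.86-fold higher (log2 difference 2.57). The human-named probe, listed on both arrays, had a log2 difference of 1.52, and its mismatch probe moved with it, from 202.0 to 732.5. miR-381, the other member past 2-fold, read 243 without and 448 with imatinib. It was at least 1.49-fold higher (log2 difference 1.18), so its 2-fold call ends at the bound, and a rat-named probe that was never listed read 178 and 163.5. The mismatch probe of the chosen miR-381 probe read 197.5 and 196.5.

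Among members measured on both P815 arrays, miR-494 was 1.52-fold and miR-539 1.42-fold higher with imatinib. Both passed 2-fold after median centring, with log2 differences of 1.38 and 1.27, and without scaling, with 1.36 and 1.25. The mismatch probe of miR-539 read 212.5 and 302, a normalized log2 difference of 0.92 against 0.51 for the matched probe. The ratio of matched to mismatch probe was 2.17 without and 3.21 with imatinib. The human-named miR-494 probe gave a log2 difference of 0.62 against 0.61 on the mouse-named one. miR-679 was 1.82-fold, miR-431 1.71-fold, miR-134 1.46-fold and miR-136 1.42-fold lower, though the unscaled intensity of miR-134 was higher with imatinib. After median centring miR-431 was at -0.05 and miR-136 at -0.14 on the log2 scale. miR-679 lay just outside the 2-fold line, at -0.87. Both signs were present on each side of the domain: the differences ran from -0.77 to 0.62 over 5 probes on the Meg3 and Rtl1 side and from -0.87 to 2.57 over 8 probes between miR-379 and miR-410. miR-485-3p and miR-494-3p share 9 bases, cauacacgg, a match that was looked for after their values were seen. Virus and worm probes also moved with imatinib: 12.2% of 41 were at least 2-fold higher and 0 lower. Their part in the cluster's differences was not tested.

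**Figure D3:**
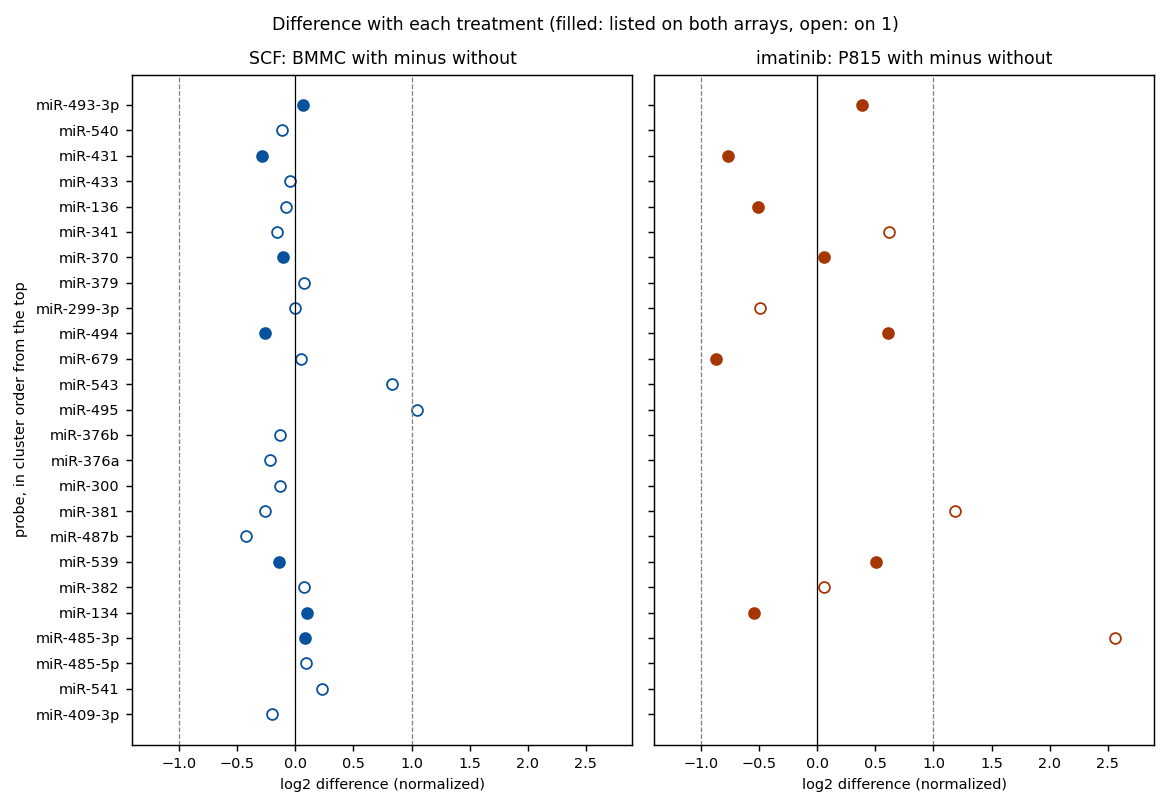
Log2 difference with SCF in BMMC (left) and with imatinib in P815 (right) for the cluster probes listed on at least 1 array of the pair (25 and 13), from the top in cluster order, with 1 array per group and no error; filled points are listed on both arrays compared, open points on 1, and dashed lines mark 2-fold. With SCF only miR-495 and miR-543 stand apart, and with imatinib the points run from -0.87 for miR-679 to 2.57 for miR-485-3p.

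SCF is the ligand of KIT and imatinib was given as its inhibitor, so the treatments allow asking which miRNAs were lower with SCF and higher with imatinib. Whether KIT was inhibited in P815 is not known from these data. Of the 13 members compared under both treatments, 5 (miR-341, miR-370, miR-494, miR-381 and miR-539) had these signs, against 24.9% of the 169 mouse miRNAs compared under both. None of the 5 was 2-fold apart with SCF on the quantile-normalized scale, where all 5 SCF differences lay between -0.26 and -0.11. In the authors' processed table they were -1.81 for miR-381, -1.51 for miR-539, -1.47 for miR-341, -1.15 for miR-494 and -0.94 for miR-370. All mouse miRNAs had a median of -0.92 there, with 102 of 240 at least 2-fold lower. miR-381 and miR-341, not listed with SCF, were set at the limit for this. The SCF sign of miR-370 turned under 2 of 11 alternatives, and those of the other 4 did not turn. The opposite signs were seen for miR-679 and miR-134, whose SCF signs also turned under some alternatives, and miR-299-3p had a difference of 0.00 with SCF.

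miR-381 and miR-539 were picked by the study itself as miRNAs that act on Mitf, a transcription factor of mast cells, so their direction in these samples is not independent evidence. miR-381 read 700.0, 415.75, 243 and 448. In SCF-treated BMMC it missed the limit of 415.875 narrowly. miR-539 read 748, 468, 461 and 969. Its ratio to its own mismatch probe was 2.79, 1.26, 2.17 and 3.21, and that of miR-381 was 2.63, 1.30, 1.23 and 2.28, so that for both the 2 arrays with KIT taken as active had the smaller ratios of their cell type. The mismatch probes were themselves brighter with SCF for both, by 1.09 and 1.30 on the normalized log2 scale. miR-300, which shares 16 bases with miR-381, read 495, 322.5, 193.0 and 232. It was listed in starved BMMC only, and its log2 difference with SCF was -0.13.

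P815 and BMMC were set against each other in 2 pairs of arrays that share no array, one with KIT taken as active (untreated P815, SCF-treated BMMC) and one with it taken as inactive (imatinib-treated P815, starved BMMC). In the first pair 4 of 12 cluster probes were at least 2-fold higher in P815 (33.3%, against 18.9% of 185 mouse miRNAs) and 3 were at least 2-fold lower (25.0%, against 30.3%). In the second pair 3 of 23 were at least 2-fold higher (13.0%, against 7.41% of 243) and 0 were at least 2-fold lower (against 16.0%). The split of the first pair depended on scaling. After median centring 1 was higher and 3 lower, where 6 of the 185 mouse miRNAs were higher and 73 lower. After 75th percentile scaling 4 were higher and 0 lower, where 36 mouse miRNAs were higher and 40 lower. Without scaling 1 was higher and 6 lower, where 2 mouse miRNAs were higher and 105 lower. The second pair had 0 of 23 higher and 13 lower without scaling, where 162 of the 243 mouse miRNAs were lower. With probes at their bound, 2 were higher and 0 lower in the first pair, where 32 of the 185 mouse miRNAs were higher and 35 lower. The median differences were 0.35 and 0.03 in the cluster and -0.01 and -0.10 over all mouse miRNAs. The virus and worm probes had medians of 0.52 and 0.23.

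Of the 10 probes compared in both pairs, 7 were higher in P815 in both (36.5% of the 181 mouse miRNAs compared in both), miR-370 was lower in both, and miR-485-3p and miR-299-3p had opposite signs. The 7 include miR-493-3p, whose first-pair difference of 0.02 kept its sign under 5 of 9 alternatives. miR-431 and miR-539 were at least 2-fold higher in P815 in both pairs, as were 7.73% of those mouse miRNAs. miR-431 was 5.48-fold and 2.64-fold higher, and miR-539 2.27-fold and 2.93-fold. Neither sign turned under the alternatives, but both lost the 2-fold call in a pair without scaling: the log2 difference was then 0.08 for miR-431 in the second pair, and 0.04 and 0.50 for miR-539. After median centring miR-539 was at 0.64 in the first pair. The mismatch probe of miR-539 had normalized log2 differences of -0.54 in the first pair and 1.68 in the second. Those of the matched probe were 1.18 and 1.55. The ratio of matched to mismatch probe was 2.79 in starved BMMC and 3.21 in imatinib-treated P815. The chosen miR-431 probe has no mismatch probe. On the normalized scale both P815 arrays stood above both BMMC arrays for 9 of the 25 listed cluster probes (28.3% of mouse miRNAs) and below them for 5 (37.2%), and 11 overlapped. Of the virus and worm probes, 53.3% stood above and 13.3% below. The lowest P815 value exceeded the highest BMMC value by 1.40 for miR-431 and 1.05 for miR-539 on the log2 scale. A human-named miR-431 probe was listed on no array and read 364, 237, 217 and 168, between 0.91 and 1.47 times its mismatch probe. Its log2 differences were 0.40 and -0.13 in the 2 pairs, so the cell type difference of miR-431 was not seen on a second probe.

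The other differences were less even between the pairs. miR-136 was higher in P815 by at least 1.57-fold in the first pair and 1.37-fold in the second, and miR-679 by at least 1.85-fold and 1.24-fold. The second-pair signs of both turned without scaling. The mismatch probe of miR-136 had log2 differences of 0.69 and 1.03 in the 2 pairs, against 1.04 and 0.45 for the matched probe. miR-543 and miR-495 were lower in the first pair, where they were listed only in SCF-treated BMMC, and close to the limit there, so no bound above 1 could be set. miR-485-3p was at least 1.33-fold lower in untreated P815 than in SCF-treated BMMC and 2.28-fold higher in imatinib-treated P815 than in starved BMMC. Its human-named probe gave log2 differences of -0.75 and 0.82 in the same pairs, both short of 2-fold. For miR-494 the 2 differences were 0.34 and 0.69, and both turned negative without scaling. The first was also negative after median centring (-0.96) and 75th percentile scaling (-0.35).

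**Figure D4:**
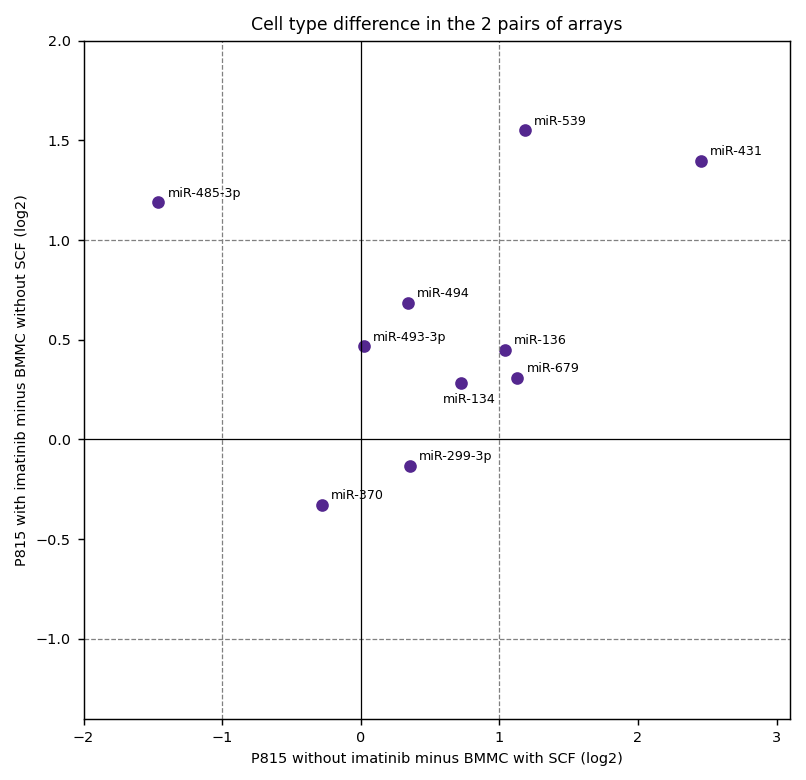
Log2 difference of P815 against BMMC with KIT taken as active (horizontal) and inactive (vertical) for the 10 cluster probes compared in both pairs, 1 array per group and no error, with dashed lines at 2-fold. miR-431 and miR-539 lie past 2-fold on both axes, and miR-485-3p is plotted at -1.46 and 1.19, the first value resting on an array where it was not listed (at least 1.33-fold lower).

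Probes of one miRNA named for different species gave a repeat of a measurement within an array. For miR-494, miR-487b and miR-495 the pairs ran in parallel across the 4 arrays. For miR-370 the human-named probe read 3325, 2037, 493.25 and 976, and its imatinib difference was 0.44 against 0.06. For miR-134 the pair gave nearly equal imatinib differences, -0.54 and -0.53, but P815 against BMMC with KIT taken as active differed between them, at 0.72 and 1.63. Whether such probes carry the same bases is not known from the files.

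**Figure D5:**
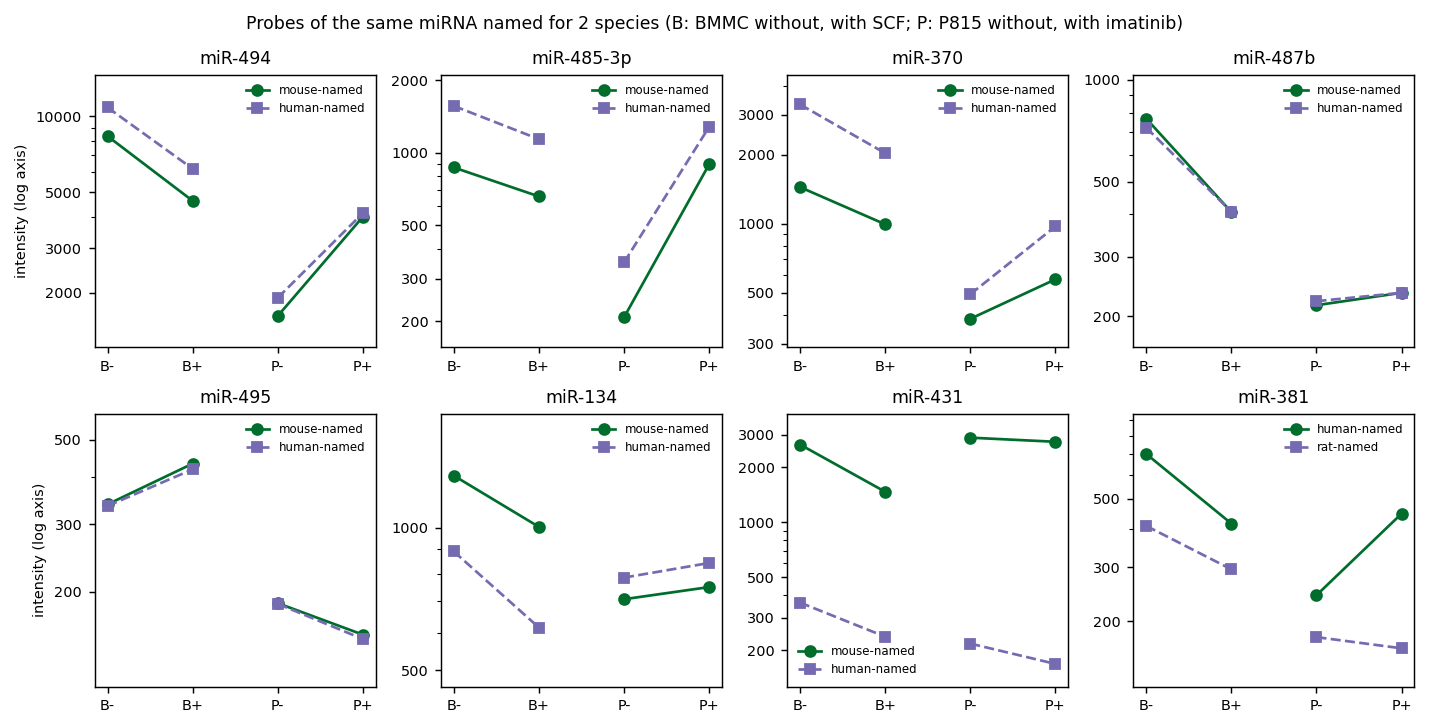
Intensity (log axis) of probes of the same miRNA named for 2 species on the 4 arrays, 1 panel per miRNA; circles are the chosen probe, squares the other, and lines join the 2 arrays of a cell type. The pairs of miR-494, miR-487b and miR-495 run together, and those of miR-431 and miR-381 do not.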

How the data were processed

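MicroRNAs were measured on 4 single-colour arrays, 1 per group, and groups were taken from the labels. Per the file headers, the authors deposited for each probe a single linear intensity, a mean of spot foreground medians, and no local background. The array maker and scanner are not stated in the labels. The processed table of the series was checked against the arrays: a value was present exactly where the deposited intensity reached 1.5 times the median mismatch probe, for all 802 entries on each array. No column was left without a sample (0). Intensities were corrected with normexp (offset 50, limma 3.58.1, R 4.3.3) on all 1406 probes, log2-transformed and quantile-normalized over the 785 matched miRNA probes, and mismatch probes were placed on the same scale by interpolation. The normalization was also run on simulated arrays in which only bright probes were changed, which cannot speak to calls near the listing limit. Mouse miRNA names followed the same species order, required a mouse gene of that name in GRCm38.p6 for human-named and rat-named probes, and left out star probes. The probes given with their values are the 10 with the highest mean intensity, all at least 2-fold apart in a comparison, miR-381 and miR-539; others are examples. Members, lists and this rule were chosen with earlier results of these data known. With 1 array per group the number of arrays limits the precision, and no test, p-value or error was computed. Alternatives of scaling, background, filter, probe choice and source of values are given in the closing section.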

Additional observations from a re-analysis of the deposited data

Results flagged for a closer look

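For miR-485-3p the differences lay in opposite directions between groups, which was not tested, as each group has 1 array. The difference between KIT taken as active and inactive was 0.0838 on the log2 scale in BMMC and -2.57 in P815. The difference between P815 and BMMC was -1.46 with KIT taken as active and 1.19 with it taken as inactive. Both negative values include the untreated P815 array, the only one on which miR-485-3p was not listed, with an intensity of 207.5. Only bounds can be stated for them, at least 2.86-fold lower in untreated than in imatinib-treated P815 and at least 1.33-fold lower in untreated P815 than in SCF-treated BMMC, so a 2-fold difference between the cell types in that direction is not shown.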

How the results depend on the processing

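No paired analysis was possible because each group has 1 array. Each 2-fold call of a single chosen probe kept its sign or, for miR-495 and miR-543 in P815 at their bound, went to 0.00. miR-485-3p stayed at least 2-fold higher with imatinib under all 10. miR-431 stayed at least 2-fold higher in P815 under all 9 with KIT taken as active and 8 of 9 with KIT taken as inactive. These pairs are called KIT active and KIT inactive below, though KIT activity was not measured. miR-539 stayed past 2-fold in P815 under 7 of 9 and 8 of 9. miR-381 stayed past 2-fold with imatinib under 6 of 10, and miR-495 with SCF under 5 of 9. A summary is called moved if a count changed by over 1.5 times or a median by more than the SD of the gaps between probes of one name. Of the summary values under alternatives, 46 moved and 94 did not, and the cause was not tested unless stated. Without scaling, the SCF median was -0.67 with 0 higher and 1 lower, and imatinib had a median of 0.65 with 5 higher (34 of 175 mouse miRNAs). In that setting P815 against BMMC had a median of -0.88 with 1 higher and 6 lower (KIT active) and -1.19 with 0 higher and 13 lower (KIT inactive; 105 of 185 and 162 of 243 mouse miRNAs were lower), and the all-miRNA medians had shifted too, to -0.61, 0.34, -1.29 and -1.31. In the authors' processed table SCF had a median of -0.90 with 0 higher and 8 of 24 lower, where all miRNAs had -0.92 with 102 of 240 lower, and imatinib 1 higher and 1 lower. Median centring gave 0.67 and 5 higher for imatinib (35 of 175 mouse miRNAs). For P815 with KIT active it gave -0.28 and 1 higher (6 of 185). 75th percentile scaling gave 1 higher for imatinib (12 of 175 mouse miRNAs) and 0 lower for P815 with KIT active (40 of 185). Cyclic loess gave 2 higher for P815 with KIT active (21 of 185). Without background correction there were 0 higher with SCF (2 of 241 mouse miRNAs) and 1 higher with imatinib (10 of 175). P815 with KIT active then had 2 higher and 1 lower (23 and 44 of 185). Subtracting the median mismatch probe gave 0 higher with SCF (6 of 241 mouse miRNAs) and 1 lower with imatinib (28 of 175). For P815 with KIT active it gave 1 lower (55 of 185). With detection on both arrays, which leaves fewer probes, 0 were higher with SCF (3 of 164 mouse miRNAs) and 0 with imatinib (5 of 132). For P815 with KIT active 2 were higher and 0 lower (29 and 29 of 128). The P815 median with KIT inactive was 0.51 (0.13 over all mouse miRNAs). With values at their bound, 0 were higher with SCF (3 of 241 mouse miRNAs) and 1 with imatinib (6 of 175). For P815 with KIT active 2 were then higher and 0 lower (32 and 35 of 185). Counting every species' probe gave 2 higher with SCF. A limit of 2 times the median mismatch probe listed 10 cluster probes in BMMC without SCF and 4 in P815 without imatinib. A limit at the 95th percentile of the mismatch probes listed 5, 4, 4 and 5 on the arrays in order.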

Other observations

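The passenger strands of the cluster, outside the members by rule, were also at background. Star probes for miR-154, miR-376a, miR-376b and miR-382 were listed on 0 of the 4 arrays. Their intensities ran from 268 to 386 in BMMC without SCF, from 195.0 to 297.5 in BMMC with SCF, from 170 to 215.0 in P815 without imatinib and from 135.5 to 176.0 in P815 with imatinib.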
